A study of Homo sapiens with 68 samples.

Results

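MALAT1 is a long noncoding RNA of the nucleus. Its peaks in these data are all listed regions whose name carries the Ensembl identifier ENSG00000251562. There were 3427 of them among 15800601 peaks in 68 lists. The 44 crosslinked libraries held 2454, the 16 libraries without ultraviolet light held 795 and the 8 libraries of other gel regions held 178. Every one of the 68 libraries listed MALAT1, with 17 to 92 peaks each. The peaks lay on chromosome 11, plus strand, between 65266513 and 65273500 in hg19, a span of 6988 nt. Positions below are counted in nt from the 5′-most of these bases. The annotation behind the lists is not used here, so exons and transcript ends are not given.

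MALAT1 is transcribed by RNA polymerase II, is retained in the nucleus and gathers in nuclear speckles, the bodies that store splicing factors. It is among the most abundant nuclear RNAs of many cultured cells. Its 3′ end is made by RNase P and is protected by a triple helix in place of a poly(A) tail. Of the 4 proteins studied, hnRNPA1 binds UAG-containing RNA and often blocks splice sites. hnRNP C, written hnRNPc in the labels, is a nuclear protein that binds runs of U. hnRNPI, also known as PTBP1, binds stretches of U and C and represses exons. RBFOX2, also called RBM9, binds GCAUG and regulates tissue-dependent exons.

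The libraries are TLC-CLIP, a method that joins proteins to RNA with ultraviolet light of 254 nm, trims the RNA with RNase, isolates 1 protein with an antibody and sequences the attached fragments. The cells were HEK293T, a human embryonic kidney line. The labels name no genetic change in any group, and the antibodies were raised to hnRNPc, hnRNPA1, hnRNPI and RBM9. There were 34 groups of 2 replicates. Groups titled lowRNase used 50k cells, 0.005 U RNase and PAGE, the gel step that isolates protein–RNA complexes by size. Groups titled noPAGE skipped the gel, and those titled RecJ had an added exonuclease digestion of adapter. These 3 protocols exist for all 4 proteins. hnRNPA1 and hnRNPc were also made at 0.025 U (mediumRNase). hnRNPc and RBFOX2 were made with PAGE at 10k cells and 0.001 U and at 1k cells and 0.0001 U. hnRNPc without PAGE was also titled 5k and 500, with and without RecJ, although the labels give 50000 cells for these. The groups titled noUV were made with the 4 antibodies, with and without PAGE, at 50000 cells and 0.005 U. Their labels carry the crosslinking protocol text, and they were taken as not crosslinked from the title and the series design. Groups titled Background hold gel regions from 50 to 250 kDa of the hnRNPc immunoprecipitation from 10000 cells.

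Each peak comes with a last number in its name, read here as the reads over that peak. The MALAT1 share is the sum of these reads over MALAT1 peaks, given per 1000000 reads listed over all peaks of that library and written RPM. Sequencing depth is unknown, and the values are reads listed in peaks. Lists held 303 to 523402 peaks. In hnRNPc_50k_lowRNase, replicate 1 listed 3268 peaks, far fewer than its partner, and the tests that use it are given with and without it. The libraries titled noUV, 10k, 1k and Background have accessions in a run of their own, so a difference between that run and the other cannot be told apart from the absence of light or the cell number. Nothing in the labels says that the 2 replicates came from separate cultures, so p-values measure the spread between these libraries. The lowest MALAT1 peak kept in a list had from 7 to 675 reads, so weak positions were listed in some libraries and not in others.

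The MALAT1 share was high for hnRNPA1, hnRNPc and RBFOX2 and low for hnRNPI. In hnRNPA1 the 2 replicates gave 8539 and 7991 RPM with PAGE. Without PAGE they gave 10466 and 12052, and 10892 and 11024 with RecJ. These 6 libraries place MALAT1 at rank 4 or 5 among all genes by listed reads. In RBFOX2 the values were 7759 and 7483 with PAGE, 5636 and 5652 without PAGE and 5974 and 6850 with RecJ. MALAT1 was between rank 5 and rank 12 there.

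In hnRNPc the values with PAGE were 34982 and 7145, the first of them from the list of 3268 peaks. Without PAGE they were 5228 and 5493, and 5486 and 5184 with RecJ, so replicates without the gel were close. MALAT1 ranked between 3 and 6 in all 6 hnRNPc libraries. In hnRNPI the values were 634 and 671 with PAGE, 399.8 and 421 without PAGE and 431 and 448 with RecJ. All 6 hnRNPI libraries lay below all 18 of the other proteins, and MALAT1 ranked between 137 and 345.

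**Figure D1:**
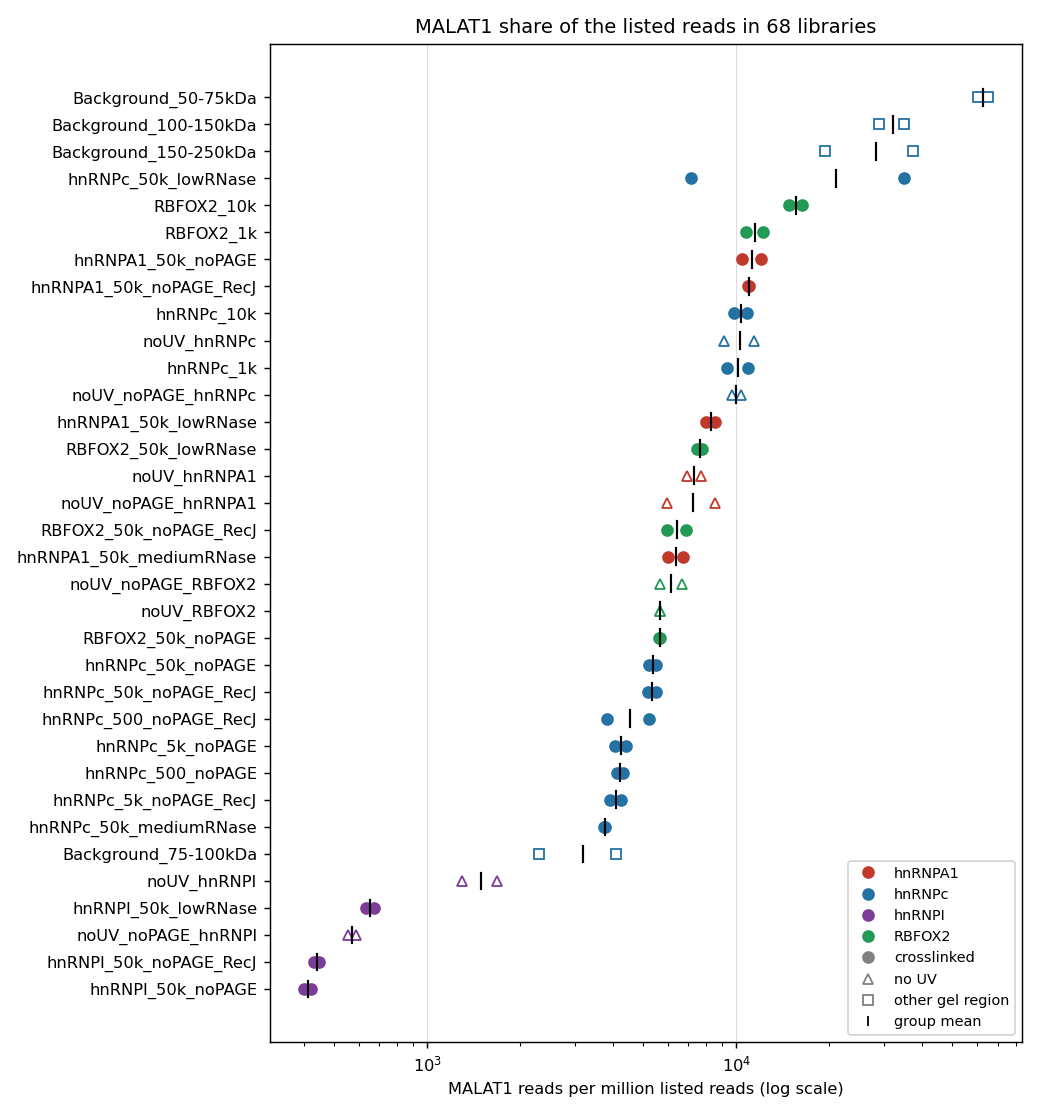
MALAT1 share in RPM (log axis) in each of the 68 libraries, 1 row per group in order of the group mean; filled circles are crosslinked libraries, triangles libraries without ultraviolet light, squares other gel regions of the hnRNPc immunoprecipitation, and the bar is the mean of 2 replicates. The 6 crosslinked hnRNPI libraries of 50k cells lie in the range 399.8 to 671, and the 2 hnRNPc_50k_lowRNase replicates are far apart.

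Ordered by mean share, the 34 groups have 33 pairs of neighbours. In 21 of these pairs the replicates overlapped and in 12 they lay apart, so most adjacent positions in the order are not separated by the spread. The highest shares, from 65300 RPM down, came from gel regions with very short lists. The groups at the low end are those of hnRNPI.

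The 6 pairs of proteins were compared over the 3 protocols at 50k cells, with an exact two-sided permutation test within protocols. The smallest p that this test can give is 0.00926. Adjusted values are over the 6 pairs. hnRNPA1 exceeded hnRNPI by 4.36 on the log2 scale, a 20.5-fold difference (exact permutation p 0.00926, adjusted p 0.0139). hnRNPc exceeded hnRNPI by 3.97, or 15.6-fold, with the same exact permutation p of 0.00926 and adjusted p of 0.0139. Without the list of 3268 peaks this difference was 3.58 (exact permutation p 0.00926, not adjusted). hnRNPI lay below RBFOX2 by 3.73 (log2 difference −3.73, exact permutation p 0.00926, adjusted p 0.0139). In each of these pairs the libraries did not overlap under any of the 3 protocols. Such separation in the same direction was found for 36.4% of all genes tested between hnRNPA1 and hnRNPI. It was found for 6.06% between hnRNPc and hnRNPI, and for 29.6% in the direction of hnRNPI below RBFOX2. In the opposite direction the shares were 30.2%, 37.2% and 47.8%. The signed MALAT1 difference stood at percentile 99.3 of all genes for hnRNPA1 minus hnRNPI and at percentile 99.0 for hnRNPc minus hnRNPI. For hnRNPI minus RBFOX2 it stood at percentile 8.32, so 8.32% of genes had a more negative difference. The median gene differed by 0.92 there. In hnRNPI fewer MALAT1 peaks touched a neighbour, 2 to 8 per library with and without the gel, and touching peaks can count a read more than once. With peaks under 30 nt apart joined and the highest read number kept, hnRNPA1 still exceeded hnRNPI, by 3.25 (exact permutation p 0.00926). In the same way hnRNPc exceeded hnRNPI by 2.87 (exact permutation p 0.00926), and hnRNPI minus RBFOX2 was −3.18 (exact permutation p 0.00926).

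hnRNPA1 exceeded RBFOX2 by 0.63 on the log2 scale, or 1.55-fold (exact permutation p 0.00926, adjusted p 0.0139), without overlap under any protocol. The same separation was found for 51.7% of all genes tested and the opposite one for 23.4%, and the median gene differed by 1.05, more than MALAT1. The difference was small with PAGE, where hnRNPA1 was 1.08-fold RBFOX2, and larger without PAGE at 1.99-fold. With neighbouring peaks joined it was 0.070 (exact permutation p 0.296), so the call was lost. As percent of listed peaks that lie in MALAT1 the direction turned, to −1.27 on the log2 scale (exact permutation p 0.00926). With the reads at 501 to 1000 nt left out, a region chosen for its many hnRNPA1 reads, the difference was 0.089. hnRNPA1 and hnRNPc differed by 0.39 (exact permutation p 0.407, adjusted p 0.489), which misses the threshold. In the same libraries the median gene differed by 0.80, more than MALAT1, which stood at percentile 34.6 of all genes. Without the list of 3268 peaks the MALAT1 difference was 0.77 (exact permutation p 0.00926, not adjusted). As percent of listed peaks it turned to −1.27 (exact permutation p 0.0185), and with the total over 200 genes it was 0.47 (exact permutation p 0.0370). With the same region left out it was −0.081. For hnRNPA1 above hnRNPc, 30.8% of all genes were separated under all protocols, and 4.5% were separated the other way. hnRNPc and RBFOX2 differed by 0.24 (exact permutation p 1.0, adjusted p 1.0), and without that list by −0.14 (exact permutation p 0.00926, not adjusted). It was 0.61 with deposited p below 1e-05 (exact permutation p 0.0185) and 0.70 with the total over 200 genes (exact permutation p 0.00926). With joined peaks it was −0.31 (exact permutation p 0.759), so neither its direction nor its call held. Of all genes, 6.73% were separated with hnRNPc above RBFOX2 and 25.2% below.

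Along the RNA, the 4 proteins placed their reads differently. Reads were assigned to 14 bins of 500 nt by the centre of each peak and given as a percent of the MALAT1 reads of that library. The last bin holds 488 nt.

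**Figure D2:**
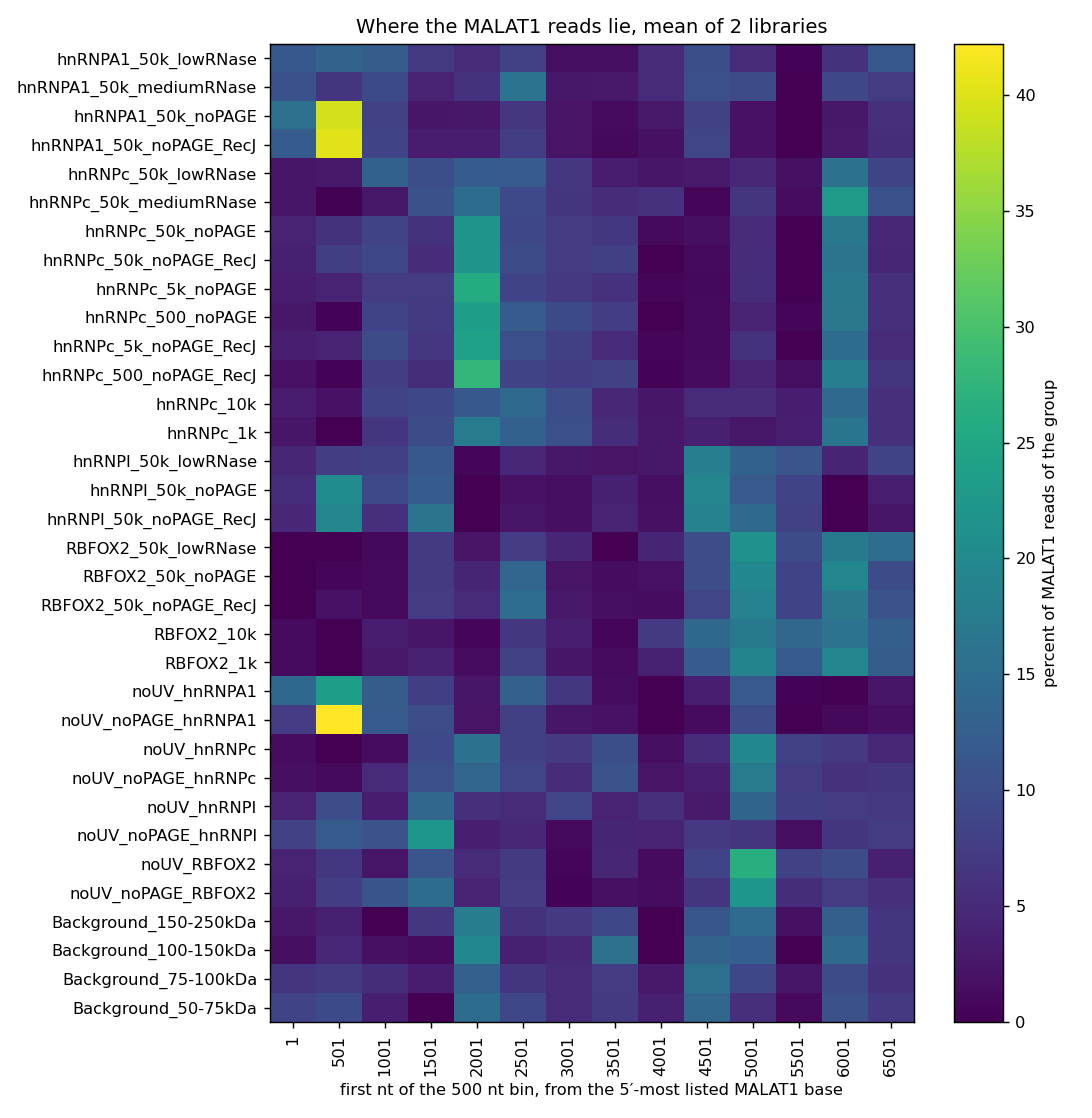
Percent of the MALAT1 reads of a group in each 500 nt bin (x axis, first nt of the bin; y axis, the 34 groups; colour, mean of 2 replicates). hnRNPA1 groups without PAGE are brightest at 501 to 1000 nt, most hnRNPc groups at 2001 to 2500 and 6001 to 6500 nt, crosslinked hnRNPI groups at 4501 to 5000 nt and, without PAGE, also at 501 to 1000 nt, and RBFOX2 groups in the 3′ part.

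RBFOX2 reads lay towards the 3′ end. In its 6 libraries of 50k cells, 66.0 to 77.9% of the MALAT1 reads lay 3′ of the midpoint of the span. The same measure was at most 41.3% in hnRNPA1, 32.4 to 41.7% in hnRNPc and 48.1 to 60.3% in hnRNPI, all below RBFOX2. The bin from 5001 to 5500 nt held 17.6% to 22.9% of RBFOX2 reads and that from 6001 to 6500 nt held 14.4% to 19.8%. The first 500 nt held no RBFOX2 peak in any of the 6 libraries, and 501 to 1000 nt held at most 2.11%. The highest single peak lay at one of 2 places. With PAGE it was at 6061 to 6115 and 6036 to 6180 nt in the replicates, with 2325 and 2526 reads. With RecJ it was at 5212 to 5300 and 5212 to 5324 nt, with 2311 and 2496 reads. Without PAGE replicate 1 had it at 5212 to 5402 nt and replicate 2 at 6065 to 6167 nt. These peaks hold 3.88 to 6.67% of the reads.

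hnRNPI had 1 region that held its highest peak under every protocol. That peak started between 4589 and 4621 nt and ended between 4746 and 4842 nt in all 6 libraries, within 65271101 to 65271354. It held 14.5% and 11.3% of the reads with PAGE, 13.6% and 12.3% without PAGE, and 12.6% and 14.4% with RecJ. The peak had 318 to 548 reads, while the highest hnRNPA1 peaks had 2253 to 10204. The bin from 2001 to 2500 nt, rich in hnRNPc reads, held 0% to 1.14% of hnRNPI reads. Under these 3 protocols, MALAT1 peaks of hnRNPI were mostly fewer and wider, 25 to 36 per library with a median width of 53.0 to 73.0 nt. The other 3 proteins had 29 to 76 peaks there with median widths of 29.0 to 55.0 nt, the lowest number and the widest peaks from the list of 3268 peaks. Few and wide peaks were not particular to hnRNPI. The RBFOX2 libraries of 1k cells listed 28 and 33 peaks with median widths of 75.0 and 54.0 nt.

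hnRNPc reads were spread over the middle and a 3′ region. The bin from 2001 to 2500 nt held 10.9% and 13.7% with PAGE and 17.2% and 26.3% without. The bin from 6001 to 6500 nt held 16.7% and 14.9% with PAGE and 20.8% and 13.2% without. From 4001 to 5000 nt hnRNPc had little: the 2 bins there held at most 4.47% each. Its highest peak fell at 2213 to 2310 and 2257 to 2323 nt without PAGE, with 1904 and 1667 reads. With RecJ it fell at 2238 to 2306 and 2246 to 2323 nt. With PAGE it fell at 6080 to 6218 nt in the short list and at 6213 to 6277 nt in the other.

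hnRNPA1 reads lay towards the 5′ end, more so in the libraries without PAGE. With PAGE the reads were spread, with no bin above 13.9%, and the highest peak was at 2649 to 2762 and 2646 to 2762 nt, with 2259 and 2253 reads. Without PAGE the bin from 501 to 1000 nt alone held 37.8% and 40.9%, and with RecJ 43.1% and 37.5%. The bin from 5501 to 6000 nt was close to empty in hnRNPA1, at 0% to 0.905%.

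**Figure D3:**
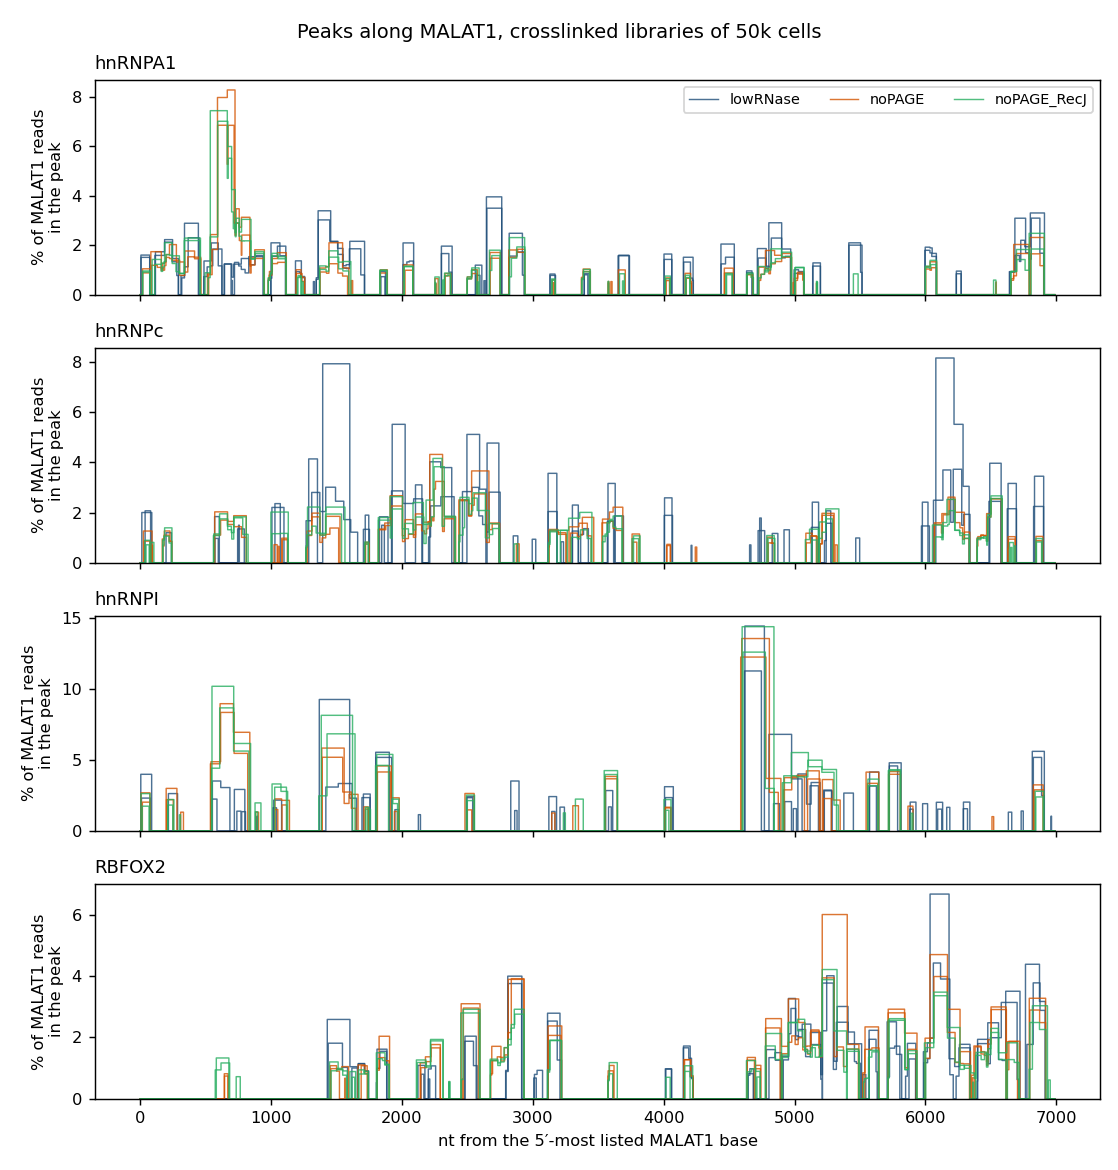
Each MALAT1 peak drawn over its nt (x axis, nt from the 5′-most listed base) at the percent of the MALAT1 reads of its library that it holds (y axis), for 4 proteins and 3 protocols, 1 line per library. The high block that starts between 4589 and 4621 nt in hnRNPI is present in all 6 lines, while the one at 501 to 1000 nt in hnRNPA1 stands out in the 4 lines without PAGE.

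Windows of 50 nt show single positions. For each protein 3 windows are named, each listed in at least 5 of its 6 libraries and at least 150 nt from the others. Among such windows they held the largest mean percent of MALAT1 reads, so their rank within that protein is a description. The highest hnRNPI peak, which starts between 4589 and 4621 nt, is not among them, because its centre moved between windows. For hnRNPI the window at 5751 to 5800 nt (65272263 to 65272312) held 4.35 ± 0.291% (SD, n = 6) of the reads and was listed in 6 of 6 libraries. RBFOX2 listed it too, in 6 of 6 libraries at 2.34 ± 0.609% (SD, n = 6), and hnRNPA1 and hnRNPc in none of their 6 crosslinked libraries. In the libraries without light, hnRNPc listed this window in 4 of 4 at 2.41 ± 0.640% (SD, n = 4). There RBFOX2 listed it in 4 of 4 at 2.62 ± 0.658% (SD, n = 4), hnRNPI in 1 of 4 and hnRNPA1 in none of 4. The other hnRNPI windows were 751 to 800 nt at 4.97 ± 1.75% (SD, n = 6) and 1851 to 1900 nt at 4.14 ± 2.09% (SD, n = 6). For RBFOX2 the window at 4951 to 5000 nt (65271463 to 65271512) held 3.41 ± 0.972% (SD, n = 6). It was listed in none of the 6 hnRNPc libraries, in 1 of 6 for hnRNPA1 and in 3 of 6 for hnRNPI. RBFOX2 windows at 6101 to 6150 nt held 3.70 ± 2.18% (SD, n = 6) and at 2851 to 2900 nt 3.54 ± 0.551% (SD, n = 6). RBFOX2 libraries without light listed 4951 to 5000 nt in 4 of 4, 6101 to 6150 nt in none of 4 and 2851 to 2900 nt in 1 of 4.

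For hnRNPc the window at 2251 to 2300 nt (65268763 to 65268812) held 4.13 ± 1.25% (SD, n = 6), listed in 6 of 6. hnRNPI listed it in none of 6, hnRNPA1 at 0.386 ± 0.314% (SD, n = 6). The window at 1951 to 2000 nt held 3.01 ± 1.25% (SD, n = 6) of hnRNPc reads. It was listed in none of the 6 crosslinked libraries of hnRNPA1 or of RBFOX2. RBFOX2 libraries without light listed it in 4 of 4, at 1.67 ± 0.441% (SD, n = 4), and those of hnRNPA1 in none of 4. That at 1451 to 1500 nt, at 3.05 ± 2.45% (SD, n = 6), was listed for all 4 proteins. For hnRNPA1 the window at 701 to 750 nt (65267213 to 65267262) held 7.06 ± 4.81% (SD, n = 6). With PAGE it held 1.94% and 1.88%, both below the 4 libraries without PAGE. The windows at 201 to 250 nt and 6701 to 6750 nt held 2.72 ± 0.655% (SD, n = 6) and 2.53 ± 1.40% (SD, n = 6). hnRNPA1 libraries without light listed 201 to 250 nt in 4 of 4, at 9.09 ± 4.24% (SD, n = 4), 701 to 750 nt in 3 of 4 and 6701 to 6750 nt in none of 4. Peak borders move between libraries, so a window can miss a region whose centre lies in the next.

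The likeness of 2 libraries was taken as the sum over the 14 bins of the smaller of their 2 shares, which is 1 for the same profile. Among the 24 crosslinked libraries of 3 protocols, mean likeness was 0.837 for pairs of the same protein and 0.515 for pairs of different proteins. The difference was 0.322 (one-sided permutation p 1e-05, the smallest that 100000 relabellings of protein within protocol can give). Without the list of 3268 peaks it was 0.330. By protein, the mean was 0.805 in hnRNPA1, 0.839 in hnRNPc, 0.823 in hnRNPI and 0.880 in RBFOX2. Between proteins it ran from 0.447 for hnRNPA1 and RBFOX2 to 0.563 for hnRNPA1 and hnRNPI. In all 44 crosslinked libraries, including those of 10k, 1k, 5k and 500 cells and of medium RNase, the nearest profile among the 24 libraries, outside their own group, was of the same protein.

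MALAT1 peaks covered 2618 to 3133 nt in hnRNPA1, 1833 to 3082 in hnRNPc, 1915 to 2143 in hnRNPI and 2592 to 3347 in RBFOX2. Bases covered in at least 5 of the 6 libraries of a protein numbered 2364 in hnRNPA1, 2103 in hnRNPc, 1540 in hnRNPI and 2480 in RBFOX2. All 4 proteins shared 170 of them, in 4 runs. The longest run, 70 nt at 1457 to 1526 nt (65267969 to 65268038), was followed by 46 nt at 6845 to 6890 nt (65273357 to 65273402). Of the hnRNPA1 bases, 376 (15.9%) were covered in no library of the other 3 proteins, the longest run being 120 nt at 331 to 450 nt (65266843 to 65266962). The same count was 157 (7.47%) for hnRNPc, 113 (4.56%) for RBFOX2 and 14 (0.909%) for hnRNPI. No library of the 68 covered 345 nt, or 4.94% of the span. The longest such gap was 58 nt at 4075 to 4132 nt. These covered lengths move with how weak a peak each list still holds.

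Omitting the gel was the question of the first protocol comparison. Over the 4 proteins the MALAT1 share differed by −0.55 on the log2 scale without PAGE (exact permutation p 0.0571, adjusted p 0.228 over 4 protocol tests), so the difference misses the threshold. The values differed in direction between proteins. In hnRNPA1 both libraries without PAGE lay above both with PAGE, by 0.44. In hnRNPI both lay below, by 0.67 (log2 difference −0.67), and in RBFOX2 both lay below, by 0.43 (−0.43). In hnRNPc the difference was −1.56, with the list of 3268 peaks included, and replicate 2 with PAGE at 7145 still lay above both without PAGE. Without that list the difference over the 4 proteins was −0.27 (exact permutation p 0.0802). With peaks of p below 1e-05 it was −0.79 (exact permutation p 0.00926) and with the total over 200 genes −0.90 (exact permutation p 0.00154), both past the threshold. Of the 7 alternatives run, 4 kept the call of the main test. The median gene differed by 0.12 without PAGE, and MALAT1 stood at percentile 7.67 of all genes. Of all genes tested, 0.438% were higher and 1.87% lower without overlap in all 4 proteins. MALAT1 is in neither count.

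The higher share of hnRNPA1 without PAGE lay at 501 to 1000 nt. Inside this region the RPM were 1092 and 1113 with PAGE, 3958 and 4932 without and 4697 and 4132 with RecJ. With these reads left out, the shares were 7455 and 6886 with PAGE and 6534 and 7155 without, and 6225 and 6921 with RecJ, and the 3 groups overlapped. The region held 10 and 11 peaks with PAGE and 13 and 16 without, and the covered length was 408 and 416 nt against 465 and 452 nt. Its highest single peak, which no splitting of peaks can add to, had 158 and 167 RPM with PAGE and 867 and 826 without. The highest hnRNPA1 peak outside the region had 299 and 316 RPM with PAGE and 242 and 221 without. The mean position of hnRNPA1 reads was 2956 and 3077 nt with PAGE and 1999 and 2002 nt without. This region was picked after its values were seen and has no test.

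**Figure D4:**
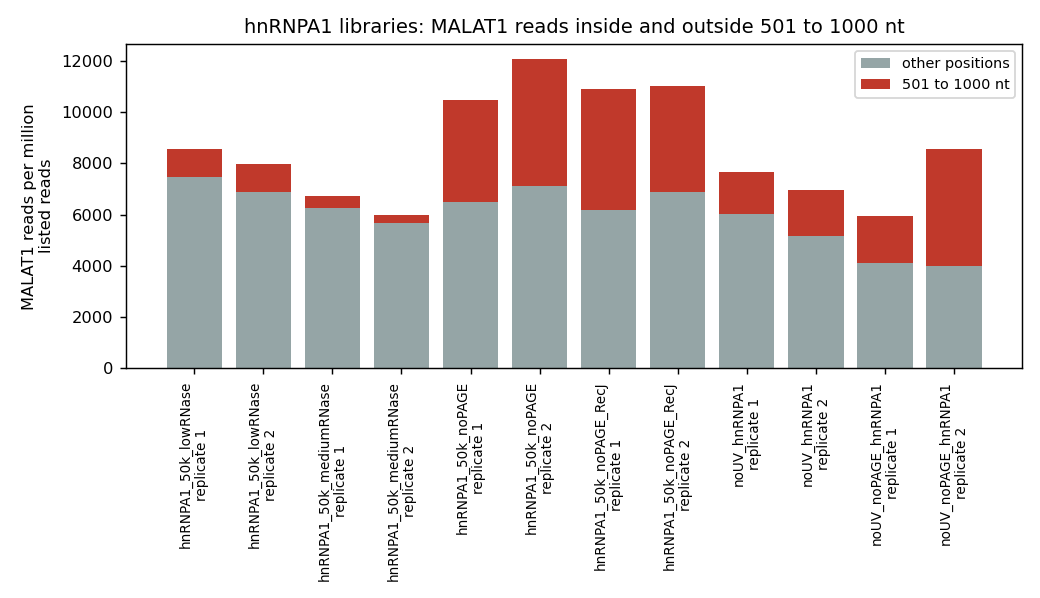
MALAT1 share in RPM in the 12 hnRNPA1 libraries, split into peaks at 501 to 1000 nt (red) and all other positions (grey), 1 bar per library. The red part is at most 1113 RPM with PAGE and crosslinking, and 3958 to 4932 in crosslinked libraries without PAGE. Without light it is 1638 and 1784 with PAGE and 1857 and 4557 without PAGE. The grey part of the crosslinked libraries stays between 5657 and 7455 when computed without the red reads.

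In hnRNPI the same bin held 5.15% and 10.3% of MALAT1 reads with PAGE and 20.6% and 20.0% without. Its highest peak there had 18.5 and 23.6 RPM with PAGE and 35.9 and 35.2 without, while the whole share was lower without PAGE. In hnRNPc the bin held 3.33% and 2.32% with PAGE and 6.32% and 5.998% without, and in RBFOX2 no peak with PAGE and 0.816% and 0.741% without. In all 4 proteins both libraries without PAGE, and without RecJ, were higher in this bin than both with PAGE, by very unequal amounts. The difference was not tested. In RBFOX2 it rests on 1 peak per library, of 420 and 407 reads, near the lowest listed MALAT1 peaks of 331 and 407. The lowest with PAGE were 278 and 260 reads in smaller lists of reads, so a like weak signal could be missing there.

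RecJ digestion, which removes leftover adapter, was compared in 6 pairs of groups without PAGE. The MALAT1 share differed by 0.046 on the log2 scale (exact permutation p 0.340, adjusted p 0.453), higher in 3 and lower in 3 pairs. Of all genes tested, 0.00732% were lower and none higher without overlap in all 6. In hnRNPA1 the mean position was 2029 and 2044 nt with RecJ and 1999 and 2002 without, and in RBFOX2 4556 and 4545 with and 4688 and 4689 without.

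RNase amount and cell number have 2 libraries per group, where the smallest exact p is 0.333, and are given as values. With medium RNase the hnRNPA1 share was 6723 and 5996, below both low RNase libraries. Its bin from 501 to 1000 nt held 7.19% and 5.70%, against 12.8% and 13.9% at low RNase, and the bin from 2501 to 3000 nt 12.7% and 19.4% against 7.57% and 9.00%. In hnRNPc the medium RNase share was 3746 and 3769, and the bin from 6001 to 6500 nt held 23.4% and 21.8%.

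With PAGE, RBFOX2 libraries of 10k cells had the largest MALAT1 share, those of 1k came next, and those of 50k had the smallest. It was 14816 and 16277 at 10k and 12169 and 10739 at 1k, against 7759 and 7483 at 50k. The 10k value was 2.04-fold and the 1k value 1.50-fold that of 50k. The amount of RNase and the accession run differ between these groups too, and their part was not tested. At 10k, 80.4 and 83.5% of reads lay 3′ of the midpoint, and at 1k 80.1 and 79.4%. The 1k libraries listed 28 and 33 MALAT1 peaks, and one of the same 2 places held the highest peak, 6064 to 6169 nt in replicate 1 and 5209 to 5305 nt in replicate 2.

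For hnRNPc with PAGE the shares were 10858 and 9842 at 10k and 10898 and 9340 at 1k, between the 2 replicates of 50k. Without PAGE they were 4042 and 4400 for the libraries titled 5k and 4109 and 4315 for those titled 500, all below both 50k libraries. With RecJ they were 4251 and 3905 for 5k and 5228 and 3826 for 500, and the latter overlapped the 50k libraries. The bin from 2001 to 2500 nt held 24.2% and 23.1% in the libraries titled 500 and 23.7% and 28.3% in those titled 5k. The libraries titled 500 listed 46 and 49 MALAT1 peaks over 2414 and 2611 nt, against 69 and 73 peaks over 2956 and 2966 nt at 50k.

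Omitting crosslinking asks which fragments are recovered without the covalent bond. With PAGE, the MALAT1 share over the 4 proteins differed by −0.015 on the log2 scale (exact permutation p 0.972, adjusted p 0.972). Without PAGE it differed by 0.21 (exact permutation p 0.261, adjusted p 0.453). The median gene differed by −0.64 and −0.68, and MALAT1 stood at percentiles 72.5 and 79.3 of all genes. With PAGE and without the list of 3268 peaks, MALAT1 differed by 0.27 (exact permutation p 0.213), so the sign turned. It also turned with neighbouring peaks joined (0.26, exact permutation p 0.745) and as percent of listed peaks (1.13, exact permutation p 0.219). With the total over 200 genes it was −0.65 (exact permutation p 0.0216). Without PAGE, joined peaks gave 0.58 (exact permutation p 0.00926) and percent of listed peaks 1.42 (exact permutation p 0.00154), both past the threshold. The total over 200 genes turned that sign, to −0.24 (exact permutation p 0.218), so no direction without light held over these settings. Without PAGE, lists without light were shorter in every protein, 44086 to 278452 peaks against 157375 to 523402 with light. MALAT1 peaks numbered 26 to 90 in the former and 28 to 76 in the latter. The part of list length in the percent of listed peaks was not tested. Of all genes, 1.3% were higher and 2.5% lower without overlap in all 4 proteins with PAGE, and 2.34% and 17.9% without PAGE. MALAT1 is in none of these counts.

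By protein, the values differed in direction. In hnRNPI the share without light was 1684 and 1300 with PAGE, above both crosslinked libraries by 1.18 on the log2 scale, and 556 and 587 without PAGE, above by 0.48. The hnRNPI libraries without light rest on few reads, 430 and 520 over MALAT1 with PAGE. With PAGE the hnRNPI lists held 18690 and 36809 peaks without light and 312894 and 294597 with light, and the part of list length was not tested. In hnRNPA1 the share without light was 7659 and 6950 with PAGE and 5962 and 8559 without, below the crosslinked libraries in both (−0.18 and −0.65). In hnRNPc it was 9107 and 11384 with PAGE, between the 2 crosslinked replicates, and 9675 and 10328 without, above both by 0.90. In RBFOX2 it was 5648 and 5681 with PAGE, below by 0.43 (−0.43), and 5665 and 6675 without, above by 0.12. Against RBFOX2_10k, which shares the accession run, noUV_RBFOX2 was lower by 2.74-fold, and noUV_hnRNPc differed from hnRNPc_10k by −0.022 on the log2 scale.

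Without light, some regions were again full and others were not. The 501 to 1000 nt region of hnRNPA1 held 21.4% and 25.7% of reads with PAGE and 31.1% and 53.2% without. The highest peak of all 4 of these libraries lay within 541 to 724 nt and held 15.9 to 18.9% of the reads. With PAGE it had 1219 and 1314 RPM, against 158 and 167 for the highest peak of the region in the crosslinked libraries. Without PAGE it had 959 and 1359 RPM, against 867 and 826 in the crosslinked libraries. The hnRNPA1 bin from 6001 to 6500 nt held 5.88% and 6.44% with light and 0% and 0% without, both with PAGE.

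The 3′ region of hnRNPc at 6001 to 6500 nt, with 16.7% and 14.9% in the crosslinked libraries with PAGE, held 7.39% and 6.75% without light. The bin from 5001 to 5500 nt held 4.48% and 4.84% with light and 21.8% and 17.5% without. Without PAGE the same bin held 4.87% and 5.30% with light and 18.6% and 16.5% without. In the libraries without light, the hnRNPc bin from 2001 to 2500 nt held 17.2% and 14.4% with PAGE and 14.5% and 13.0% without PAGE.

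The crosslinked hnRNPI peak described above was not the highest in any library without light. With PAGE its bin from 4501 to 5000 nt held 21.3% and 15.3% with light and 4.19% and 1.92% without. Without PAGE the bin held 19.2% and 19.7% with light and 7.74% and 6.43% without. RBFOX2 reads lay less 3′ without light, with 48.3 to 62.9% 3′ of the midpoint against 66.0 to 77.9%. The RBFOX2 bin from 501 to 1000 nt, near empty with light, held 6.42% and 7.35% with PAGE and 8.61% and 6.76% without. The bin from 5001 to 5500 nt was still the fullest RBFOX2 bin, at 25.8% and 27.4% with PAGE and 23.5% and 20.9% without. Without light and PAGE, the highest RBFOX2 peak lay at 1417 to 1598 and 1438 to 1587 nt.

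**Figure D5:**
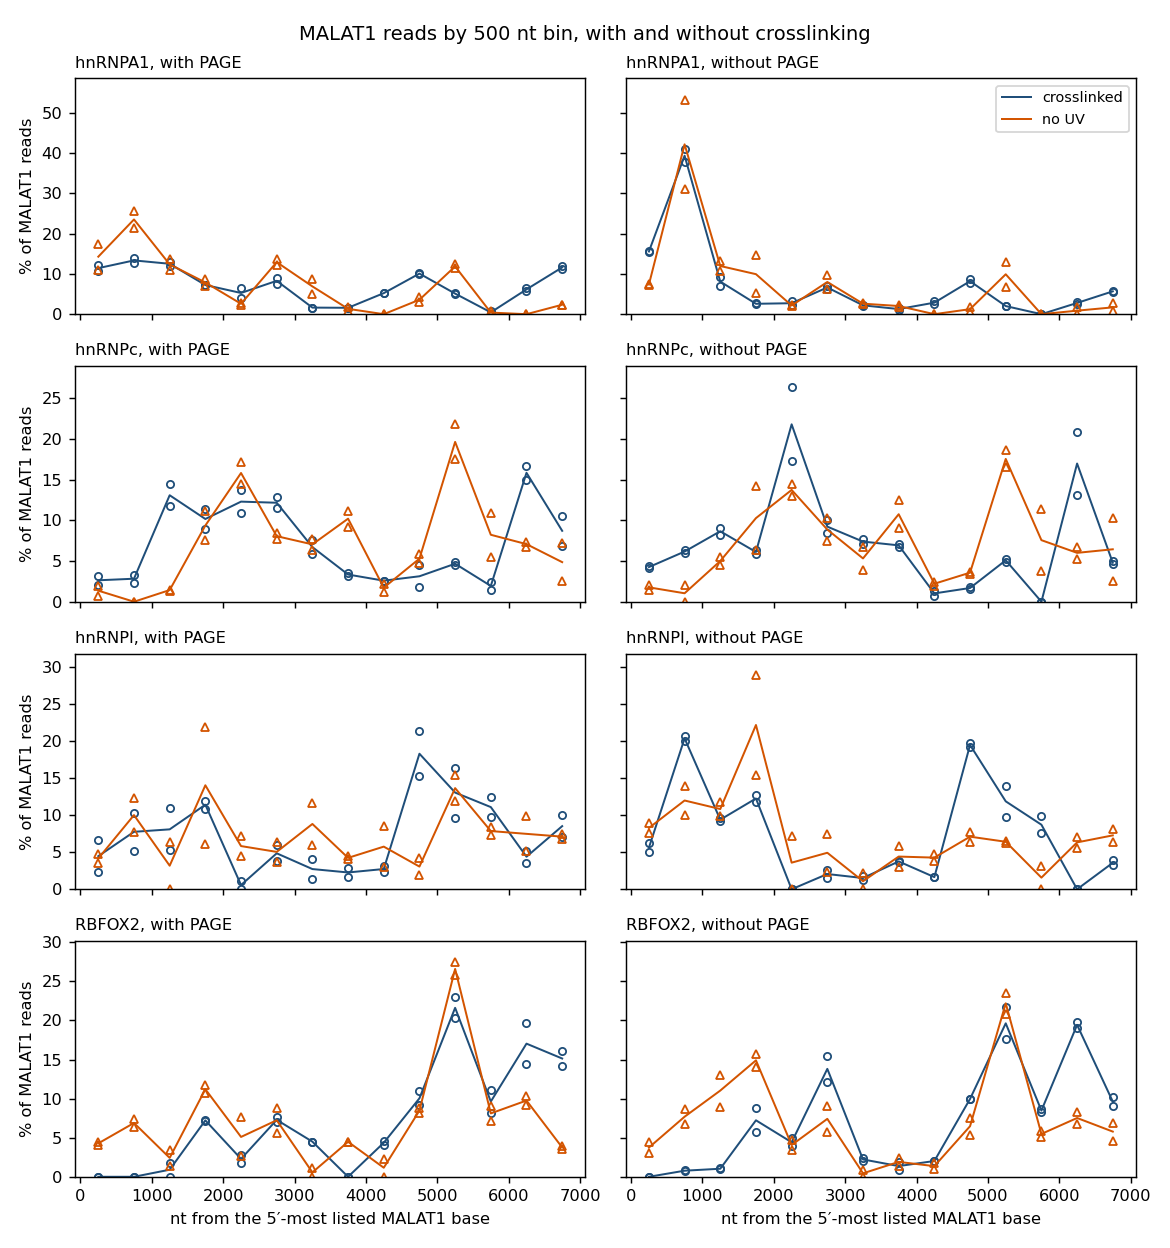
Percent of MALAT1 reads in each 500 nt bin (x axis, bin centre in nt) for crosslinked libraries of 50k cells (blue circles) and libraries without ultraviolet light (orange triangles), with the mean of 2 replicates as a line, by protein and by use of PAGE; the y axis differs between rows. The bin from 501 to 1000 nt stays high in hnRNPA1 without light, while that from 4501 to 5000 nt in hnRNPI and that from 6001 to 6500 nt in hnRNPc and RBFOX2 are lower than with light.

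The nearest crosslinked profile was of the same protein in 10 of the 16 libraries without light, against 44 of 44 with light. Among those without light, the only mismatch with PAGE was hnRNPc replicate 2. The mismatches without PAGE were hnRNPc replicate 2, both hnRNPI libraries and both RBFOX2 libraries. Mean likeness to the 6 crosslinked libraries of the same antibody was 0.696 with RBFOX2, 0.682 with hnRNPA1, 0.655 with hnRNPc and 0.650 with hnRNPI. For hnRNPc without light the likeness to RBFOX2, 0.673, was above that to its own protein. For RBFOX2 without light and PAGE the likeness to hnRNPI was 0.683 and to RBFOX2 0.675. For hnRNPI without light and PAGE the likeness was 0.657 to hnRNPA1 and 0.657 to hnRNPI. Bases covered in at least 3 of the 4 libraries without light lay within the own crosslinked bases by 70.1% in hnRNPA1, 58.3% in hnRNPc, 61.0% in hnRNPI and 62.5% in RBFOX2. They also lay within the crosslinked bases of the other proteins, by 34.8% to 51.9% for hnRNPA1, 28.0% to 45.9% for hnRNPc, 47.6% to 54.6% for hnRNPI and 40.3% to 48.8% for RBFOX2. Whether light or the accession run accounts for these differences cannot be told apart.

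The other gel regions of the hnRNPc immunoprecipitation have lists of 303 to 6716 peaks. Of these 8 libraries, the lowest shares came from the longest lists (75 to 100 kDa), and the part of list length was not tested. The share was 60516 and 65300 at 50 to 75 kDa and 4081 and 2308 at 75 to 100 kDa. It was 29024 and 34993 at 100 to 150 kDa and 37196 and 19349 at 150 to 250 kDa. By rank among genes, MALAT1 stood between 4 and 8 in all 8, and at rank 3 in both hnRNPc_10k libraries. These libraries rest on 284 to 1178 MALAT1 reads. Their bin from 2001 to 2500 nt held 9.51% to 26.1%, and that from 4501 to 5000 nt 9.65% to 17.8%. In the latter bin the 10k libraries of hnRNPc, also from 10000 cells at 0.001 U, held 4.40% and 5.63%, and all 20 crosslinked hnRNPc libraries together 0.728% to 5.63%.

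Other long noncoding RNAs give a setting for these values. Of a list of 8 (NEAT1, KCNQ1OT1, TUG1, NORAD, SNHG1, GAS5, MEG3 and MIAT), 7 were listed, all on the chromosome that a gene table gives for them, and MEG3 was not. Between hnRNPA1 and hnRNPI, 4 of the 7 were higher and 1 lower without overlap, where 36.4% and 30.2% of all genes were. The median difference was 0.82 against 0.055 over all genes and 4.36 for MALAT1. NORAD, a long noncoding RNA that binds Pumilio proteins, differed by 5.62, more than MALAT1, and NEAT1, the scaffold RNA of paraspeckles, by 0.069. Between hnRNPc and hnRNPI, 2 were higher and 2 lower, where 6.06% and 37.2% of all genes were, with a median of −0.86 against −0.77 over all genes. NORAD differed by 3.21 there with overlapping libraries under at least 1 protocol. Between hnRNPI and RBFOX2, 1 was higher and 4 lower, beside 47.8% and 29.6% of all genes. Between hnRNPA1 and RBFOX2, 3 were higher and 3 lower, beside 51.7% and 23.4%. Between hnRNPc and RBFOX2, 1 was higher and 3 lower, beside 6.73% and 25.2%. Without light, the list differed by a median of −0.11 with PAGE and 0.47 without, against −0.64 and −0.68 over all genes. With PAGE 0 of 7 were called, beside 1.3% of all genes higher and 2.5% lower. Without PAGE 1 was higher, NORAD, beside 2.34% higher and 17.9% lower. NORAD was chosen for naming after its values were seen.

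The genes whose group means moved most like MALAT1 over the 22 crosslinked groups, among 9099 compared, were ENSG00000137154 with Pearson r 0.970 and ENSG00000100650 with r 0.964. The groups share antibodies and lists of like length, so these values are a description, and the lists do not pair these identifiers with names.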

How the data were processed

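The deposited files are CLIPper peak lists of 68 TLC-CLIP libraries. Per the submitters' processing notes, bcl2fastq, STAR 2.7.3a and UMI-tools 1.0.1 were used with hg19, and the sources used here do not give the peak caller's settings. Each list was called on 1 library. The p-values are the authors' deposited values, all at most 0.00755. The last number in a peak's name is a deposited whole number that was read as an unscaled read number, at least 4, whose meaning no header states. Sequencing depth is not known, and touching peaks can count a read more than once.

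MALAT1 peaks were taken by Ensembl identifier, and the members and lists were chosen with earlier results of these data known. Log2 of the share plus a pseudocount of 1 was compared by exact two-sided permutation within proteins (4 protocol tests) or within protocols (6 protein pairs), with Benjamini-Hochberg adjustment per family and a threshold of 0.05. Over all genes, a call means no overlap between groups in any protein or protocol compared. Named positions were, per protein, the 3 windows of 50 nt with the largest mean percent, listed in at least 5 of 6 libraries and at least 150 nt apart. Of the 5 most alike genes over the crosslinked groups, among genes listed in at least 40 of 44 libraries, 2 identifiers were printed. Alternatives changed peak joining, the p threshold, the total, the unit, the bins, the libraries and the replicate block. A total over 200 genes and the reads outside 501 to 1000 nt were chosen after seeing the data. The identifiers of the listed long noncoding RNAs were written by hand and checked by chromosome only. Motifs and exon positions were not analysed here. Python 3.11.15, numpy 2.4.6, pandas 2.3.3, SciPy 1.17.1 and matplotlib 3.10.9 were used, and the tests were tested on simulated data. Replicate numbers did not pair libraries.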

Additional observations from a re-analysis of the deposited data

Results flagged for a closer look

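Within some protocol comparisons, both libraries of one protein lay above and both of another below their counterparts. These differences between proteins were not tested. Without PAGE the MALAT1 share was higher in hnRNPA1 and lower in the other 3 proteins. The log2 effects differed by 2.0037 between hnRNPA1 and hnRNPc, where the list of 3268 peaks takes part, by 1.1101 between hnRNPA1 and hnRNPI, and by 0.8761 between hnRNPA1 and RBFOX2. Without ultraviolet light and with PAGE, hnRNPI was higher while hnRNPA1 and RBFOX2 were lower, with differences of 1.36 and 1.6085. Without light and without PAGE, hnRNPA1 was lower while the others were higher, with differences of 1.552 from hnRNPc, 1.1291 from hnRNPI and 0.7765 from RBFOX2.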

How the results depend on the processing

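The lower share of hnRNPI against each of the other 3 proteins kept its direction and stayed past the threshold under every alternative run. Its log2 size ranged from 0.68 to 4.49 against hnRNPA1, from 1.96 to 4.21 against hnRNPc, and from −3.99 to −1.96 for hnRNPI minus RBFOX2. For the other comparisons the cause of a change was not tested, and p-values are exact permutation values.

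With peaks under 30 nt apart joined, no UV minus UV was 0.26 with PAGE (exact p 0.745) and 0.58 without (exact p 0.00926), hnRNPA1 minus RBFOX2 was 0.070 and hnRNPc minus RBFOX2 −0.31. With deposited p below 1e-05, no PAGE minus PAGE was −0.79 (exact p 0.00926) and hnRNPc minus RBFOX2 0.61 (exact p 0.0185). With the total taken without mitochondrial and top 10 genes, no UV minus UV with PAGE was 0.26. As percent of listed peaks, no UV minus UV was 1.13 with PAGE (exact p 0.219) and 1.42 without (exact p 0.00154), hnRNPA1 minus hnRNPc −1.27 (exact p 0.0185), hnRNPA1 minus RBFOX2 −1.27 (exact p 0.00926) and hnRNPc minus RBFOX2 −0.0014.

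With the total over 200 genes, chosen after seeing the data, no PAGE minus PAGE was −0.90 (exact p 0.00154), no UV minus UV −0.65 with PAGE (exact p 0.0216) and −0.24 without (exact p 0.218), hnRNPA1 minus hnRNPc 0.47 and hnRNPc minus RBFOX2 0.70. With reads outside 501 to 1000 nt, a region chosen for its hnRNPA1 reads and so no independent test, no PAGE minus PAGE was −0.75, hnRNPA1 minus hnRNPc −0.081 and hnRNPA1 minus RBFOX2 0.089.

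Leaving out each library in turn gave −0.84 to −0.27 for no PAGE minus PAGE. It was past the threshold without hnRNPA1_50k_noPAGE replicate 2, hnRNPA1_50k_lowRNase replicate 2 or hnRNPc_50k_lowRNase replicate 2. The range was −0.30 to 0.27 for no UV minus UV with PAGE and 0.15 to 0.28 without, and 0.0083 to 0.083 for RecJ. It was 0.0080 to 0.77 for hnRNPA1 minus hnRNPc, 0.59 to 0.66 for hnRNPA1 minus RBFOX2 and −0.14 to 0.62 for hnRNPc minus RBFOX2. Without hnRNPc_50k_lowRNase replicate 1, no UV minus UV with PAGE turned to 0.27, and hnRNPA1 minus hnRNPc (0.77) and hnRNPc minus RBFOX2 (−0.14) were past the threshold. The likeness difference ranged from 0.315 to 0.339 without 1 library and from 0.227 to 0.342 under the other alternatives.

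With the replicate block, which pairs same-numbered libraries, no call changed. The exact p was 0.117 for no PAGE, 0.977 and 0.352 for no UV, 0.352 for RecJ and 0.03125 for each called protein pair. The correlation of same-numbered deviations was −0.13 to 0.080 across genes, so the libraries share only a number. Short lists and the unknown depth limit weak positions most.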
